A study of Mus musculus with 10 samples.

Results

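The genes described here are 9 that build, coat and break down the triglyceride droplet of the cell: Plin2, Plin4 and Plin5 (droplet coat), Pnpla2, Lipe and Mgll (lipases), and Gpam, Dgat1 and Dgat2 (synthesis). They were taken by symbol from a table of 23303 gene entries, all 9 were found, and all 9 passed the filter on low values, which kept 11651 genes. The samples were left ventricles of male 129X1/SvJ mice, 5 whose surgery is given as CKD (chronic kidney disease) and 5 given as Sham, 1 library per mouse. The labels give no age, no type of kidney surgery and no batch, and the title names uremic cardiomyopathy, the heart disease of kidney failure, as the subject. Levels are in FPKM, a measure scaled by transcript length and by library size. Comparisons of level between genes rest on that scaling, and the annotation behind it is not given.

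Heart muscle burns mainly fatty acids, and part of what it takes up passes through a small, fast-turning pool of triglyceride in lipid droplets. Gpam starts glycerolipid synthesis on the mitochondrial outer membrane and the diacylglycerol acyltransferases Dgat1 and Dgat2 complete it. Pnpla2 (adipose triglyceride lipase), Lipe (hormone-sensitive lipase) and Mgll (monoglyceride lipase) then remove the fatty acids one after the other. Perilipins coat the droplet and control access of the lipases, and Plin5, typical of oxidative muscle, also tethers droplets to mitochondria.

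None of the 9 genes passed the test across all genes in CKD against Sham (0 of 9 by limma at an adjusted p under 0.05), where 5.29% of all tested genes did. Without both CKD 1 and Sham 1, 2 libraries that stand apart as described below, 1 of the 9 passed (Plin5, lower). In that setting 305 of the 11651 tested genes rose and 249 fell. With all libraries, the differences of the 9 genes were small, from -0.25 to 0.16 on the log2 scale. Their median was -0.08, beside -0.00345 over all tested genes. The median size of the difference, without its sign, was 0.11 among the 9 and 0.09 among all tested genes. At an unadjusted p under 0.05 stood 3 of the 9, where 19.5% of all tested genes did: Plin5 and Gpam, lower in CKD (9.03% of all tested genes), and Mgll, higher (10.5%). Among the perilipin transcripts, the ratio of Plin5 to Plin2 FPKM within a library was lower in all 5 CKD ventricles than in any Sham ventricle. This was 1 of 6 chosen ratios and passed narrowly (exact permutation, adjusted p = 0.0476). It did not pass in 10 of 14 alternatives, where fewer libraries limit how small p can be. Around the 9 genes, Plin3 rose and Fitm2 fell among 17 tested droplet proteins. Ces1d fell among 11 lipase partners and other lipases, Agpat3 among 19 synthesis enzymes and Slc27a1 among 12 supply genes. Over all tested genes, 3.17% rose and 2.12% fell. The calls of Plin3, Fitm2 and Agpat3 were lost in 3, 7 and 12 of 22 alternatives, and those of Ces1d and Slc27a1 held in all 22.

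The tissue label was checked first. Myl2, the ventricular myosin light chain, stood at 16935 to 22199 FPKM, and its atrial counterpart Myl7 averaged 1.22 ± 0.866 FPKM over CKD and 1.12 ± 0.823 over Sham libraries (SD, 5 libraries per group). The cardiac genes Myh6 and Atp2a2 have an exact 0 in each of the 10 columns, so an exact 0 in this table does not show absence. Summed FPKM ran from 570509 to 605007 per library. Read numbers are not known here, but the smallest values rise in steps of 1 read, and the ratio of these steps between libraries gives their relative depth. For pairs among 8 of the libraries, 27.1% to 31.5% of the low genes shared 1 ratio, which put their depth at 0.908 to 1.15 times that of Sham 2. CKD 1 and Sham 1 shared such a ratio with none of the 8 (1.43% to 2.25% of low genes) and weakly with each other (7.46%). The labels give no reason for this, and its cause was not tested. Each group holds 1 of them, and counts and calls that change without both are given both ways.

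**Figure D1:**
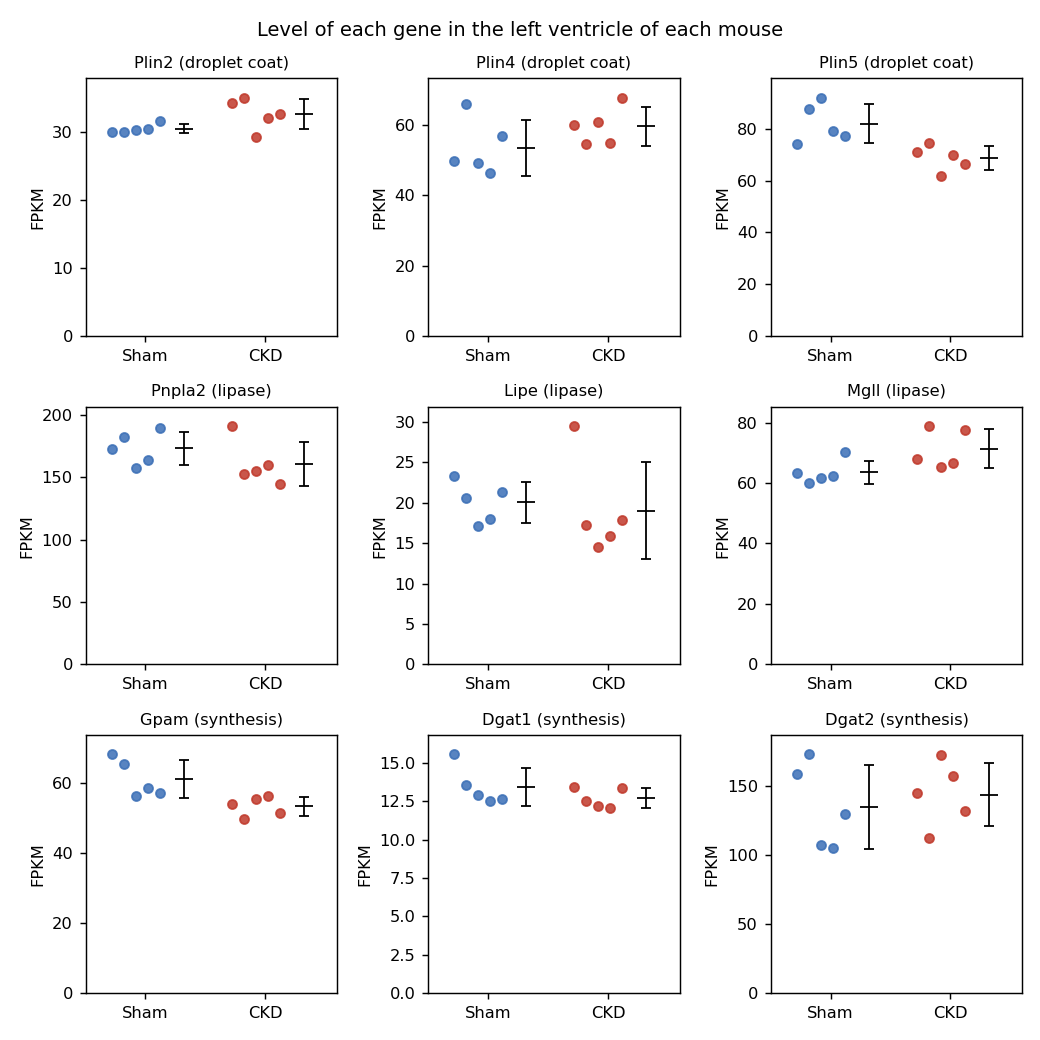
FPKM of the 9 genes in each mouse (points, Sham blue and CKD red, 5 each), with a bar for mean and SD to the right of each set; every vertical axis starts at 0. The groups lie close together for all 9 genes and are separate for Gpam alone, at 49.6 to 56.1 FPKM in CKD and 56.2 to 68.2 in Sham.

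By level, the 9 genes spanned a wide range in Sham ventricles, from a mean of 13.4 FPKM for Dgat1 to 173 ± 13.1 for Pnpla2 (SD, n = 5). Dgat2 came after Pnpla2 with 134 ± 30.3 FPKM, in 5 of 5 Sham libraries, although the ranges of both genes overlapped between mice. Plin5 followed at 82.0 ± 7.49 FPKM. Mgll (63.5 ± 3.92), Gpam (61.1 ± 5.38) and Plin4 (53.5 ± 7.93) formed a group whose ranges overlapped, then came Plin2 (30.5 ± 0.691), Lipe (20.1 ± 2.52) and Dgat1. In CKD the order of Plin5 and Mgll was less clear, with Plin5 above Mgll in 2 of 5 libraries against 5 of 5 in Sham. Gpam was above Plin4 in 1 of 5 CKD libraries and in 4 of 5 Sham libraries. The steadiest gene among Sham mice was Plin2, with a coefficient of variation of 2.26%, and the least steady was Dgat2 with 22.6%.

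Plin5 had the largest difference of the 9. Its gene lies on chromosome 17 from 56111597 to 56117606, on the minus strand (RefSeq, GRCm38). It stood at 71.2, 74.3, 61.7, 69.8 and 66.4 FPKM in CKD 1 to 5, and at 74.1, 87.5, 92.0, 79.1 and 77.3 FPKM in Sham 1 to 5. Every CKD value was below the Sham mean and 4 of 5 were below the lowest Sham value, with CKD 2 just above Sham 1. The difference was -0.25 on the log2 scale (SE 0.07, 95% interval -0.41 to -0.10), that is -16.0%. It did not pass over all genes (limma, adjusted p = 0.0605), and the exact two-sided permutation test of this 1 gene gave p = 0.0159, unadjusted. The call depends on the libraries kept and on the model. Without Sham 1, the lowest Sham value, the difference passed (limma, adjusted p = 0.0442), and without CKD 1 it did not (0.0714). Without both, the difference was -0.30 and passed (limma, adjusted p = 0.0481). It also passed with sample weights (0.0193), and with a term for the pair (0.0464), an alternative added after the data were seen. Leaving out any other single library left it short of the threshold, with an adjusted p up to 0.138.

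Plin4 is the next gene along chromosome 17 on the same strand, from 56100587 to 56109948, 1648 bases from the RefSeq end of Plin5. It encodes a perilipin with a long repeat region that coats small droplets. Its levels were 59.8, 54.4, 60.9, 54.7 and 67.7 FPKM in CKD 1 to 5 and 49.6, 65.9, 49.1, 46.2 and 56.7 in Sham 1 to 5. All 5 CKD values were above the Sham mean, but Sham 2 was above 4 of them. The log2 difference was 0.16 (SE 0.10, 95% interval -0.05 to 0.37, limma adjusted p = 0.396).

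The 250 bases before 1 listed start site of each gene are shown because these neighbours differed from Sham in opposite directions, though neither passed on its own. Capitals mark 2 short motifs, searched on both strands: the nuclear receptor core motif AGGTCA, the letters that PPAR and related receptors recognise, and the CCAAT box, which reads ATTGG from the opposite strand. The windows lie at chr17:56117549-56117798 for Plin5 and chr17:56109783-56110032 for Plin4, on the minus strand, and the letters are RefSeq's for GRCm38.p6. Plin5 has 2 listed windows, of which 1 is shown. The listed start sites, 56117548 for Plin5 and 56109782 for Plin4, lie inside the RefSeq spans given above. Part of each window is therefore within the gene and not upstream of it.
Plin5: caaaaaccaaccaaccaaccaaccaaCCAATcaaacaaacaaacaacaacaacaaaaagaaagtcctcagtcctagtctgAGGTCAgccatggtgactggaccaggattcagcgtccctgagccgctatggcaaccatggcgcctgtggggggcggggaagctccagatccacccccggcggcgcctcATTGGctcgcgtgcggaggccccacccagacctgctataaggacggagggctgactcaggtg
Plin4: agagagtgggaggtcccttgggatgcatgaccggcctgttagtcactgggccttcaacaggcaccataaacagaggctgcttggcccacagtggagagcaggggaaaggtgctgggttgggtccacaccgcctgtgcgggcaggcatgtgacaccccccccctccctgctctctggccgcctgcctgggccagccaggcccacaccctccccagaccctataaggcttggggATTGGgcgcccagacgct
The Plin5 window shown holds 1 AGGTCA, beginning 170 bases before the listed start, and 2 CCAAT boxes. The Plin4 window holds no AGGTCA and 1 CCAAT box, 18 bases before the listed start and inside the RefSeq span of the gene. AGGTCA occurs in 14.0% and CCAAT in 33.8% of the 32851 windows of this length in the table. Of the 9 genes, 7 have windows there (11 in all). AGGTCA is in those of Plin2, Plin5 and Gpam, and the direct repeat of that core with 1 base between, the PPAR element, which 0.0335% of all windows hold, is in none of the 11.

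Plin2 (chromosome 4, 86626910 to 86670217) encodes the coat protein found on droplets of most cells, which is stabilised by stored lipid. It stood at 34.3, 35.1, 29.3, 32.2 and 32.7 FPKM in CKD 1 to 5 and at 30.0, 30.0, 30.4, 30.5 and 31.7 in Sham 1 to 5. The CKD values were above the whole Sham range in 4 mice, and CKD 3 was below it. The log2 difference was 0.10 (SE 0.05, 95% interval -0.02 to 0.22, limma adjusted p = 0.371). The exact permutation test gave p = 0.0952, and without CKD 3 p = 0.0159, both unadjusted. CKD 3 was the 1 CKD value below the Sham range, so its omission left the groups without overlap. Over all omissions of 1 library the exact permutation p ran from 0.0159 to 0.190, and 1 of 16 alternatives gave a p under 0.05.

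Among the lipases, Pnpla2 (chromosome 7, 141455188 to 141460743) takes the first fatty acid from triglyceride. It stood at 191, 152, 155, 160 and 144 FPKM in CKD 1 to 5 and at 173, 182, 158, 164 and 190 in Sham 1 to 5. CKD 1 was the highest of all 10 libraries, while 3 CKD mice were below the Sham range. The log2 difference was -0.11 (SE 0.08, 95% interval -0.28 to 0.06, limma adjusted p = 0.465). Without CKD 1 it was -0.18, moving the exact permutation p from 0.214 to 0.0317, unadjusted. This was the 1 of 16 alternatives with an exact permutation p under 0.05. Over all omissions of 1 library that p ran from 0.0317 to 0.397.

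Lipe (chromosome 7, 25379527 to 25398486), which acts mainly on diacylglycerol, had its highest level in CKD 1 as well. It stood at 29.5, 17.3, 14.5, 15.9 and 17.8 FPKM in CKD 1 to 5 and at 23.3, 20.5, 17.1, 18.0 and 21.3 in Sham 1 to 5. CKD 1 was far above the other 4 CKD mice, and Sham 1 was the highest Sham mouse. The log2 difference of -0.11 (SE 0.16, 95% interval -0.47 to 0.24, limma adjusted p = 0.771) became -0.28 without CKD 1, -0.22 without both CKD 1 and Sham 1 and -0.03 at its smallest with another library left out, none past the threshold. In the GENCODE annotation 15.6% of the exonic bases of Lipe are shared with 4732471J01Rik on the opposite strand, which averaged 0.606 ± 0.213 FPKM over CKD and 0.665 ± 0.376 over Sham mice. The sources used here do not say if the quantification used strand.

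Mgll (chromosome 6, 88724412 to 88828360) releases the last fatty acid and also degrades an endocannabinoid. It stood at 68.1, 78.9, 65.3, 66.6 and 77.6 FPKM in CKD 1 to 5 and at 63.3, 60.0, 61.7, 62.4 and 70.2 in Sham 1 to 5. All 5 CKD values were above the Sham mean, and CKD 2 and CKD 5 were above the whole Sham range. The log2 difference was 0.16 (SE 0.07, 95% interval 0.02 to 0.31) and did not pass over all genes (limma, adjusted p = 0.20). The exact permutation p was 0.0476, unadjusted.

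Of the synthesis enzymes, Gpam (chromosome 19, 55067635 to 55127319) was the gene whose groups did not overlap. It stood at 54.1, 49.6, 55.3, 56.1 and 51.3 FPKM in CKD 1 to 5 and at 68.2, 65.6, 56.2, 58.7 and 57.1 in Sham 1 to 5. The gap between CKD 4 and Sham 3 was narrow. Groups did not overlap for 1 of the 9 genes, beside 7.28% of all tested genes (3.18% lower and 4.1% higher in CKD). The log2 difference was -0.19 (SE 0.06, 95% interval -0.33 to -0.05), that is -12.6%, and did not pass over all genes (limma, adjusted p = 0.111). The exact permutation p was 0.00794, unadjusted, the smallest that 5 mice against 5 can give.

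Dgat1 (chromosome 15, 76502012 to 76512021) stood at 13.4, 12.5, 12.2, 12.1 and 13.3 FPKM in CKD 1 to 5 and at 15.6, 13.6, 12.9, 12.5 and 12.7 in Sham 1 to 5. The groups overlapped, and the log2 difference was -0.08 (SE 0.07, 95% interval -0.22 to 0.07, limma adjusted p = 0.610). Dgat2 (chromosome 7, 99153663 to 99182713), an enzyme unrelated in sequence that carries out the same step, stood at 145, 112, 172, 157 and 131 FPKM in CKD 1 to 5 and at 158, 173, 107, 105 and 129 in Sham 1 to 5. Its spread between mice of 1 group was wider than the difference between groups (log2 0.11, SE 0.15, 95% interval -0.22 to 0.44, limma adjusted p = 0.759).

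**Figure D2:**
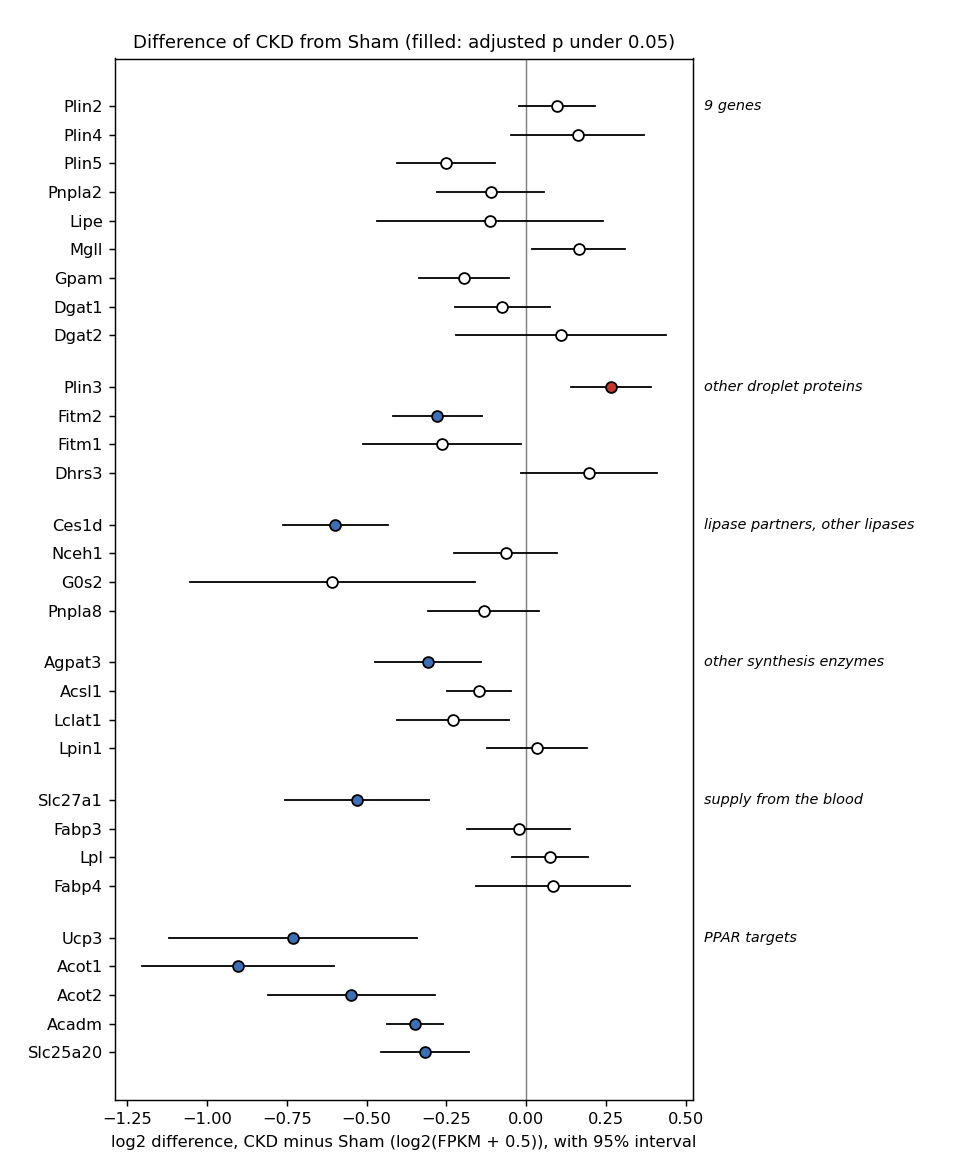
Log2 difference of CKD from Sham (points) with its 95% interval (lines) for the 9 genes and for genes of the surrounding pathway, grouped at the right; filled points passed at an adjusted p under 0.05. All 9 upper points are open, between -0.25 and 0.16. The 5 PPAR targets at the bottom, between -0.90 and -0.32, are shown because they passed, as 5 of the 16 tested in that list. The lists were chosen with earlier results of these data known.

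A ratio of 2 genes within a library does not depend on a scaling of the whole library, so 6 ratios were compared by exact two-sided permutation, with adjustment over the 6. A changed ratio shows unequal change and not which gene changed. Plin5 FPKM was 2.08, 2.11, 2.11, 2.17 and 2.03 times Plin2 in CKD 1 to 5, and 2.47, 2.92, 3.03, 2.59 and 2.44 times Plin2 in Sham 1 to 5. The CKD values were close to each other and all lay below the Sham values. The mean log2 ratio was 1.06 ± 0.04 for the CKD mice against 1.41 ± 0.14 for the Sham mice (SD, 5 mice per group), a difference of -0.35 (SE 0.07, exact permutation p = 0.00794, adjusted p = 0.0476). With any 1 library left out it was -0.38 to -0.30, and omitting CKD 1 together with Sham 1 gave -0.37. With 1 library fewer the smallest p that the design allows gives an adjusted p of 0.0952 unless another ratio is as small, and this was the value in each case but that without CKD 2 (0.0476).

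**Figure D3:**
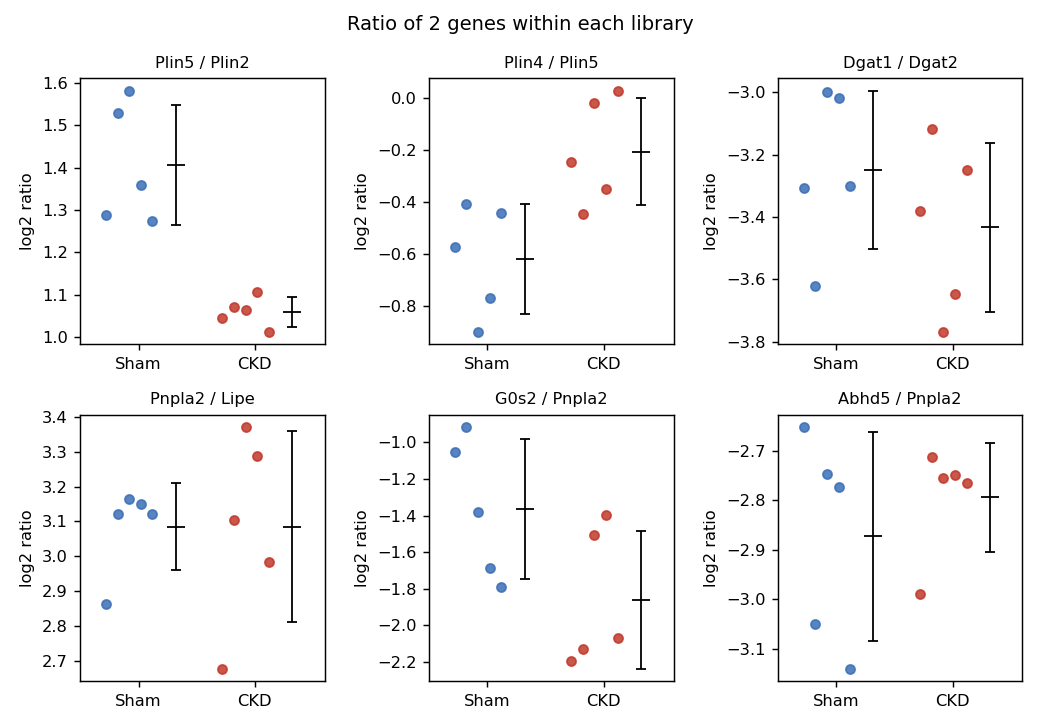
Log2 ratio of 2 genes within each library (points, Sham blue and CKD red, 5 each), with the group mean and SD; vertical axes do not start at 0. The ratio of Plin5 to Plin2 is separate between groups, at 1.01 to 1.11 in CKD and 1.27 to 1.58 in Sham, and the other 5 ratios overlap.

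The log2 ratio of Plin4 to Plin5 was -0.21 ± 0.21 in CKD and -0.62 ± 0.21 in Sham, a difference of 0.41 (SE 0.13, exact permutation p = 0.0238, adjusted p = 0.0714). It did not pass with all libraries and passed without CKD 2 (0.47, adjusted p = 0.0476). The ratio of G0s2, the inhibitor of Pnpla2, to Pnpla2 differed by -0.50 (SE 0.24, exact permutation p = 0.0714, adjusted p = 0.143). That of Abhd5, the activator of Pnpla2, to Pnpla2 differed by 0.08 (SE 0.11, adjusted p = 0.571, exact permutation). The ratio of Dgat1 to Dgat2 differed by -0.18 (SE 0.17, adjusted p = 0.417, exact permutation). That of Pnpla2 to Lipe differed by 0.00062 (SE 0.13, adjusted p = 0.984, exact permutation), and its sign changed when CKD 3 was left out (-0.07).

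The other perilipins place these values. Plin3, a coat protein that moves between the cytosol and nascent droplets, was the most abundant of the family and rose from 118 ± 5.39 FPKM in Sham to 141 ± 10.1 in CKD (log2 0.26, SE 0.06, limma adjusted p = 0.0213). It did not pass without CKD 3, CKD 5 or Sham 3 (highest adjusted p = 0.0612), and passed without both CKD 1 and Sham 1 (0.00867). Plin1, the coat protein of adipocytes, stayed at or below 0.251 FPKM in every library. The 5 perilipins together reached 302 ± 8.34 FPKM in CKD and 284 ± 12.4 in Sham. Of that sum, Plin5 made up 20.4% to 24.5% in CKD libraries and 27.1% to 32.3% in Sham libraries, with no overlap. A share also falls when another part of the sum rises, as Plin3 did, and the FPKM of Plin5 itself overlapped between groups. Plin3 made up 46.7% ± 2.53 in CKD and 41.5% ± 2.22 in Sham, and the shares of Plin2 (10.8% in both groups) and Plin4 (19.7% and 18.8%) were nearer to each other.

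**Figure D4:**
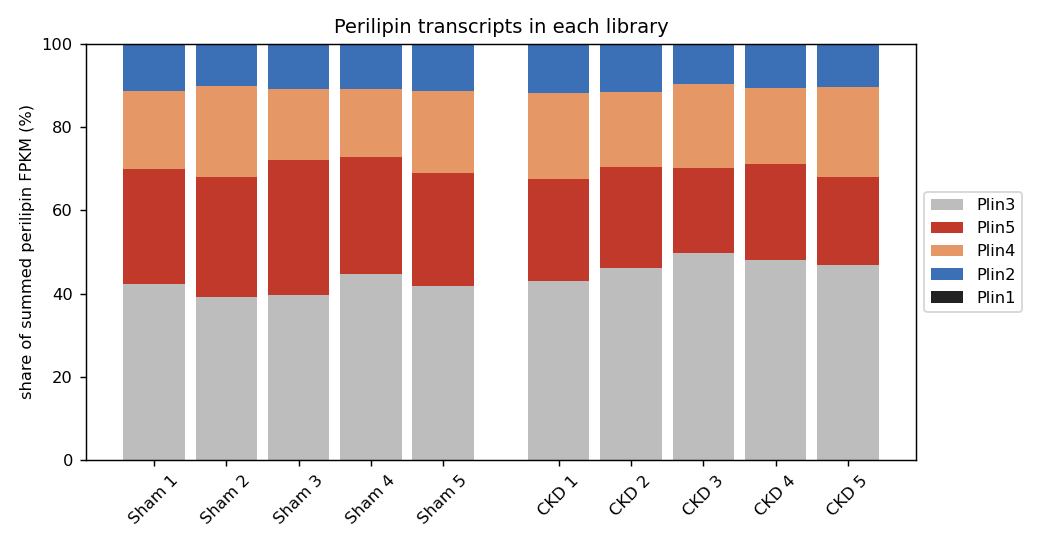
Share of each perilipin in the summed perilipin FPKM of a library, in percent; 1 bar per library, 5 Sham then 5 CKD. The red Plin5 segment takes 27.1% to 32.3% in Sham and 20.4% to 24.5% in CKD, and Plin1 is too low to be visible.

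Of the other droplet proteins, 1 of 17 tested rose (Plin3) and 1 fell, where 3.17% of all tested genes rose and 2.12% fell. These shares stand beside each list count with all libraries below. Fitm2, a protein of the endoplasmic reticulum that droplets need to bud, fell from 91.2 ± 4.77 to 75.3 ± 6.74 FPKM (log2 -0.28, SE 0.06, limma adjusted p = 0.0285). Its call was lost in 7 of the 10 fits that left out 1 library (highest adjusted p = 0.0690). Its muscle-rich relative Fitm1 averaged 154 ± 17.8 FPKM over CKD and 187 ± 33.4 over Sham mice (log2 -0.26, limma adjusted p = 0.221). The median log2 difference of the 17 was 0.06, and with a term for CKD 1 and Sham 1, 2 of them fell.

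Among 11 tested lipase partners and other lipases, 1 fell and 0 rose (median log2 -0.03). Ces1d, a carboxylesterase that hydrolyses triglyceride, fell from 102 ± 5.39 FPKM in Sham to 67.5 ± 7.63 in CKD (log2 -0.60, SE 0.08, limma adjusted p = 0.00156). Every CKD library (57.0 to 76.8 FPKM) was below every Sham library (96.1 to 109 FPKM), and the call held in every alternative run. G0s2 stood at 41.3, 34.5, 54.2, 60.4 and 34.0 FPKM in CKD 1 to 5 and at 83.1, 96.4, 60.3, 50.4 and 54.5 in Sham 1 to 5. The log2 difference of G0s2 was as large as that of Ces1d, but the mice varied widely and it did not pass (-0.61, SE 0.20, 95% interval -1.05 to -0.16, limma adjusted p = 0.115). Abhd5 averaged 22.6 ± 1.11 FPKM over CKD and 23.3 ± 2.36 over Sham mice (log2 -0.03, limma adjusted p = 0.855).

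Of 19 other tested enzymes of glycerolipid synthesis, 1 fell and 0 rose (median log2 -0.01), or 3 and 1 with a term for CKD 1 and Sham 1. Agpat3, an acyltransferase acting on lysophosphatidic acid and other lysophospholipids, fell from 69.2 ± 3.19 to 56.1 ± 6.79 FPKM (log2 -0.31, SE 0.08, limma adjusted p = 0.0381), a call lost in 12 of 22 alternatives, among them the omission of any 1 library other than CKD 1 (highest adjusted p = 0.0940). Acsl1, the main heart enzyme that joins fatty acids to coenzyme A, averaged 290 ± 9.87 FPKM over CKD and 322 ± 16.8 over Sham mice. Its groups did not overlap, but it did not pass (log2 -0.15, SE 0.05, limma adjusted p = 0.0864). Lpin1, the phosphatidate phosphatase that makes diacylglycerol, was at 41.6 ± 3.44 and 40.6 ± 3.16 FPKM (log2 0.03, limma adjusted p = 0.857; log2 -0.02 with sample weights).

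Of 12 tested genes of lipid supply from the blood, 1 fell and 0 rose (median log2 -0.00289), and without both CKD 1 and Sham 1, 2 fell. Slc27a1, the fatty acid transport protein FATP1, fell from 96.2 ± 11.2 to 66.6 ± 9.30 FPKM (log2 -0.53, SE 0.10, limma adjusted p = 0.0128). Lpl, the lipase that frees fatty acids from circulating lipoproteins, averaged 1822 ± 101 FPKM over CKD and 1731 ± 109 over Sham mice (log2 0.07, limma adjusted p = 0.504). Among 14 tested genes of adrenergic and insulin input, 1 fell (0 without both CKD 1 and Sham 1): Pde3a, a phosphodiesterase that degrades cAMP, fell from a mean of 24.5 to 18.2 FPKM (log2 -0.42, limma adjusted p = 0.0443). The call of Pde3a was lost in 11 of 22 alternatives, among them the omission of both CKD 1 and Sham 1 (adjusted p = 0.0761).

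PPAR alpha is the receptor through which fatty acids raise genes of their own use, and Plin2, Plin4, Plin5, Pnpla2 and G0s2 are known among its targets. Of these, Plin2 and Plin4 differed by 0.10 and 0.16 on the log2 scale. Plin5, Pnpla2 and G0s2 differed by -0.25, -0.11 and -0.61, and no difference passed with all libraries. The list beside them was chosen with earlier results of these data known. Of 16 tested PPAR receptors, co-activators and targets outside the 9 genes, 5 fell and 0 rose. Over all tested genes, 2.12% fell and 3.17% rose. The median log2 difference was -0.17, beside -0.00345 over all tested genes. Without both CKD 1 and Sham 1, 7 of the 16 fell, where 249 of 11651 tested genes did. Among the 5 called with all libraries, Acot1, a cytosolic acyl-CoA thioesterase, had the largest fall (log2 -0.90, limma adjusted p = 0.00376). Acadm, the medium-chain acyl-CoA dehydrogenase, had the smallest p (log2 -0.35, limma adjusted p = 0.000876). Angptl4, counted here and among the supply genes, had a larger difference but did not pass (log2 -1.20, limma adjusted p = 0.0905). Ucp3 (mitochondrial uncoupling family), Acot2 (mitochondrial thioesterase) and Slc25a20 (acylcarnitine carrier) fell by 0.73, 0.55 and 0.32 on the log2 scale. The calls of Ucp3 and Acot2 were lost in 8 and 4 of 22 alternatives, at adjusted p values up to 0.0891 and 0.0627. Ppara itself averaged 16.5 ± 0.936 FPKM over CKD and 17.6 ± 0.779 over Sham mice (log2 -0.09, limma adjusted p = 0.432).

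**Figure D5:**
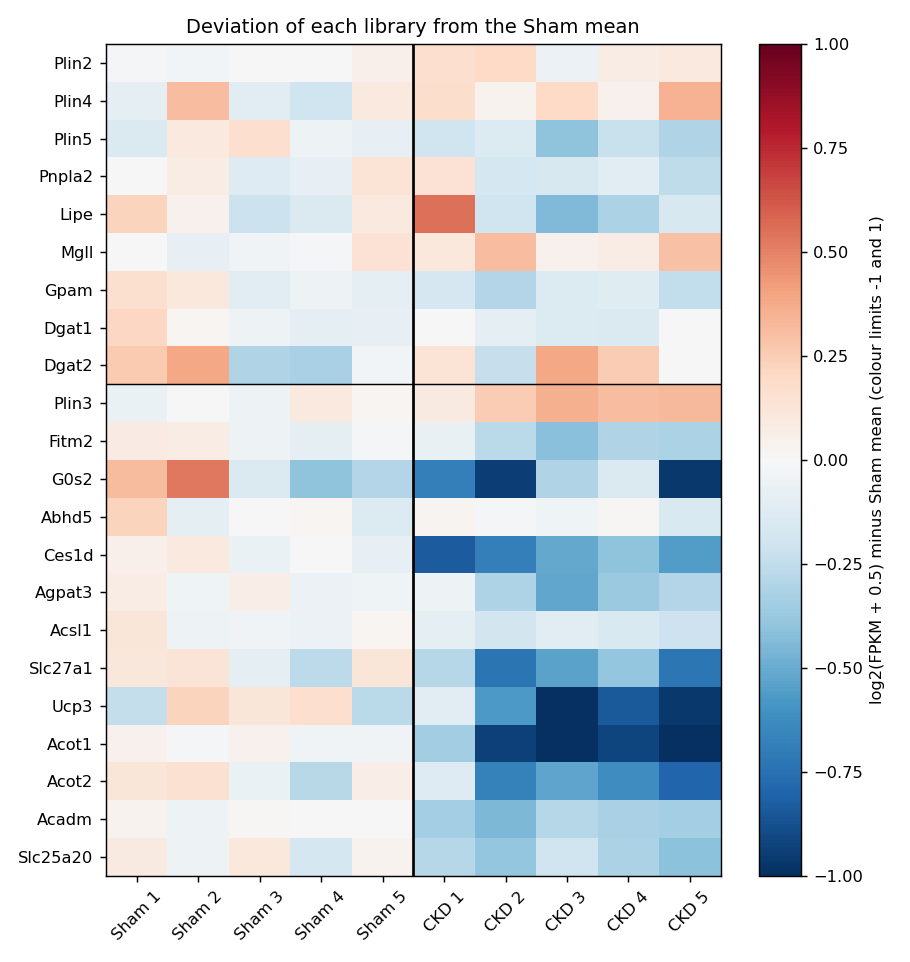
Log2(FPKM + 0.5) of each library minus the Sham mean of that gene (colour, limits at -1 and 1, values beyond them drawn at the limit), for the 9 genes above the line and pathway genes below it. Acot1, Ces1d and Slc27a1 are blue in all 5 CKD libraries, while among the 9 genes Plin5 and Gpam are pale blue and Lipe is red in CKD 1.

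Adipocytes and macrophages also hold lipid droplets, so their markers are given beside these values. The 5 defining adipocyte markers Adipoq, Plin1, Cidec, Lep and Retn summed to 0.316 to 1.41 FPKM in CKD libraries and 0.853 to 1.99 in Sham libraries. No library held as much as 2 FPKM of these 5, against 290 to 314 FPKM of summed perilipins in CKD and 266 to 301 in Sham. These 5 are part of a longer list, and the whole list stood far higher. Of the 14 adipocyte markers 8, these 5 among them, averaged under 1 FPKM and 6 were tested. All 14 together reached 994 to 1561 FPKM per CKD library and 1181 to 1401 per Sham library, mostly from Fabp4. Cidea, a marker on the list that is also a droplet protein, averaged 26.3 ± 2.38 FPKM over CKD and 24.6 ± 1.01 over Sham mice. The part of adipocytes in the values of the 9 genes was not tested. Fabp4, also an endothelial gene, was at 1276 ± 223 and 1190 ± 86.7 FPKM, and Thrsp, a regulator of lipid synthesis, rose from a mean of 29.4 to 38.1 FPKM (log2 0.36, limma adjusted p = 0.0153). Macrophage markers moved with the groups: 6 of 10 tested rose and 0 fell, or 5 and 0 without both CKD 1 and Sham 1. The 12 listed markers summed to 385 to 560 FPKM in CKD and 272 to 329 in Sham, with C1qa at 66.8 ± 9.32 and 37.5 ± 2.07 FPKM. Their part in the values of Plin2, Plin3 and Mgll was not tested. In these bulk samples fewer cells of a type and less RNA per cell cannot be told apart. Of 12 tested cardiomyocyte markers 1 rose (Csrp3, log2 0.19) and 0 fell, with a median of -0.00414; without both CKD 1 and Sham 1, 1 rose and 1 fell, and with a term for them 2 rose and 2 fell. Of 8 endothelial markers none passed (median 0.09). Of 7 tested atrial markers Nppa and Dkk3 rose and Stard10 fell, and the 8 listed markers, mostly Nppa, which ventricle also makes under load, summed to 2859 to 4132 FPKM in CKD libraries and 867 to 1853 in Sham libraries.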

How the data were processed

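Per the submitters' processing notes, STAR 2.4.0f1, Cufflinks 2.1.1 and Cuffdiff 2.1.1 were used and the builds mm10 and hg19 are named without a role. The deposited values are FPKM, made by the authors, in 1 table with 1 column per mouse. The annotation, the use of strand and the sharing of reads between genes are not given in the sources used here. Read numbers are unknown, so no count model was used. Groups came from the surgery label, and mice were numbered in each group only to name them.

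Values were analysed as log2(FPKM + 0.5) without further scaling, keeping genes whose mean over all libraries reached 1 FPKM. CKD was compared with Sham in limma 3.58.1 in R 4.3.3 (lmFit, eBayes with a trend, two-sided, Benjamini-Hochberg over 11651 genes, threshold 0.05). Differences are on that scale and slightly understate changes of low genes. Single genes and ratios were compared by exact permutation in scipy 1.17.1. The test was tried on simulated data. Nothing in the labels says how mice were housed or processed together, so p-values set the group difference against the spread between these mice alone.

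The members and lists were chosen with earlier results of these data known. Named were all members, called genes of each list, and the most abundant genes up to 4 per list. Of the marker lists the 3 most abundant genes and those at 0 were to be named; the text gives part of these, with sums and counts for each list, and Csrp3, C1qa, Thrsp, Myl7, Abhd5, Ppara and 4732471J01Rik were named after their values were seen. Alternatives changed the pseudocount, filter, scaling, variance model and libraries; the term for CKD 1 and Sham 1 was added after seeing the data. Positions and promoter letters are RefSeq's for GRCm38, which mm10 denotes. Older symbols were matched by hand. Acsl3 and Cpt1b, which share an entry with other genes, were not used here, and 1 other listed gene is not reported here.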

Additional observations from a re-analysis of the deposited data

Results flagged for a closer look

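In groups of 5 mice a single library stood far from the other 4 in 10 of 108 groups of values checked, where chance alone does this in about 1 of 20 groups. Lipe was at 29.5 FPKM in CKD 1, with 14.5 to 17.8 FPKM among CKD 2 to 5. Nceh1, a neutral cholesterol ester hydrolase, was at 63.0 FPKM in CKD 1 against 55.4 to 56.9. In CKD 1 the ventricular light chain Myl2 was at 16935 FPKM (20613 to 21305 for CKD 2 to 5) and myoglobin (Mb) at 13663 against 17847 to 18155. The log2 ratio of Abhd5 to Pnpla2 was -2.99 in CKD 1 and -2.77 to -2.71 in the others, and that of Pnpla2 to Lipe was 2.86 in Sham 1 and 3.12 to 3.16 in the other Sham mice. So 6 of the 10 fell on CKD 1 or Sham 1, the libraries whose low values lacked the steps shared by the rest. Lpin1 was at 35.6 FPKM in CKD 3 (others 42.2 to 43.8), Pde3a at 22.5 in CKD 5 (16.7 to 17.5), Lyz2, the macrophage lysozyme, at 217 in CKD 5 (162 to 165), and Fabp4 at 1339 in Sham 2 (1120 to 1182).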

How the results depend on the processing

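Of 198 recalculations of the 9 genes' differences, 194 kept their direction and their side of the threshold, and the other 4 brought Plin5 past it. Plin5 was then the 1 member called lower: at -0.31 with sample weights, -0.25 with the term for CKD 1 and Sham 1 (added after seeing the data), -0.30 without both libraries, and -0.29 without Sham 1. With 1 library left out, 0 to 1 members were called lower and Plin5 ranged from -0.29 to -0.21. Over all genes, 369 rose and 247 fell, or 305 and 249 without both CKD 1 and Sham 1. Leaving out 1 library gave 201 to 384 higher and 131 to 290 lower, sample weights gave 400 lower (511 higher), and the term gave 573 higher and 479 lower. The median over all genes moved by less than 0.1 under every scaling.

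By exact permutation, the difference of Mgll lost its unadjusted p under 0.05 when scaled to the same total (0.16), by quantile normalization (0.17), without both CKD 1 and Sham 1 (0.18) and in 7 omissions of 1 library, over which it was 0.13 to 0.20. Omissions of 1 library gave 0.070 to 0.13 for Plin2, 0.11 to 0.24 for Plin4 and -0.18 to -0.075 for Pnpla2, each passing in 1 of them. The ratio of Plin5 to Plin2 was -0.38 to -0.30 with 1 library left out and -0.37 without both, where 4 mice against 4 cannot pass after adjustment unless several ratios are as small. That of Plin4 to Plin5 was 0.34 to 0.47. The sign changed for Pnpla2 to Lipe (-0.00259 with pseudocount 1, -0.071 to 0.10 with 1 library left out), for Lpin1 with sample weights (-0.018) and for Fabp3 without both libraries (0.0058). With 1 library left out it changed for Fabp3 (-0.052 to 0.034), Myl2 (-0.084 to 0.036), Mb (-0.041 to 0.10) and Actc1 (-0.0031 to 0.067), none called. Causes were not tested. Read numbers are not known, so how depth limits low genes could not be measured. No paired analysis was possible because the labels give the groups no shared replicate numbers.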
